A study of Mus musculus with 6 samples.

Results

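The genes described here are patterning transcription factors of the embryo that were read in adult calf muscle. They are the 4 Hox clusters, the T-box (Tbx), Iroquois (Irx), Meis, Pbx and Pitx families, and the single homeobox genes Lbx1, Meox1, Meox2, Msx1, Msx2 and Barx2. They were chosen by their symbols, with Tbx15 left out, and not by a cut on any measured value, though earlier results of these data were known. The rule found 71 of the 25927 rows of the authors' deposited table, and 40 of these were among its 13347 tested rows. The knock-out animals were C57BL/6J mice with a muscle-specific knock-out called MLL4SET-MKO (3 libraries), and the controls were wild-type (WT) mice of the same strain (3 libraries). All were 8 weeks old, and the tissue was gastrocnemius, a hindlimb muscle made mostly of fast fibres. MLL4, encoded by Kmt2d, places methyl groups on lysine 4 of histone H3 at enhancers, and SET is its catalytic domain. The labels do not say which promoter drives the deletion. The question here is which of these transcripts differ in muscle after deletion of that domain.

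Hox genes are homeobox genes that lie in clusters, in an order that matches the body regions where they are switched on in the embryo. Genes with the same number in different clusters are paralogs, and the high-numbered, or posterior, paralogs pattern the limb from shoulder or hip to digits. Hox proteins bind DNA together with Pbx and Meis proteins. Tbx4 and Pitx1 act in the developing hindlimb and Tbx5 in the forelimb, while Lbx1 and the Pitx and Meox genes act in the precursors of limb muscle. Adult muscle and its connective tissue cells keep part of this positional code.

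The table gives 1 FPKM (fragments scaled to transcript length and sequencing depth) for the 3 libraries of a group together, so the spread between mice is not known and no overlap between groups can be stated. Rows were called at q under 0.05, with the q of the authors' deposited table. The 95% intervals below were worked back from the authors' test statistic times 1.73, the factor that matched it to the authors' p-values. They rest on the authors' model of the spread, and with the statistic alone taken as a standard normal z value they would be wider. The targeted gene Kmt2d stood at 5.65 FPKM in MLL4SET-MKO and 8.77 FPKM in WT (log2 ratio -0.64, interval -0.89 to -0.38; q = 0.000903 in the authors' deposited table). Of 8 fast fibre markers, 6 were tested and summed to 39674 FPKM in MLL4SET-MKO and 43129 FPKM in WT. Ckm and Acta1 have no estimate, as the authors' program marked their loci as holding too many reads. Of these 6, Mylpf alone was called, and it was lower, at 6959 FPKM in MLL4SET-MKO and 10773 FPKM in WT. This gap is larger than that of the sum, and 2 of the 6 (Myh1 and Tnni2) had a higher value in MLL4SET-MKO. The 4 slow fibre markers were all called lower, with a summed level of 124 FPKM in MLL4SET-MKO and 597.9 FPKM in WT. All 4 macrophage markers had a higher value and 2 of them were called, with a summed level of 103 FPKM in MLL4SET-MKO and 60.7 FPKM in WT. The 5 fibroblast markers summed to 641.8 FPKM in MLL4SET-MKO and 620.2 FPKM in WT, and none was called. The part of these marker differences in the members' values was not tested. The values are of whole muscle, so fewer cells of a type and less RNA per cell cannot be told apart.

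Of the 40 tested rows, 6 were called higher (Irx3, Pbx3, Hoxa11, Hoxd10, Barx2 and the row that Tbx6 shares with Ypel3) and 2 were called lower (Pitx3 and Tbx4). Across all tested rows, 11.8% were called, 4.44% higher and 7.41% lower. A higher value in MLL4SET-MKO, called or not, was found for 29 of the 40 rows, against 45.7% of all tested rows. The median log2 ratio of the 40 rows was 0.13, and that of all tested rows was -0.03. By level, 0 of 8 tested members below a mean of 1 FPKM were called, against 11.2% of all tested rows of that level. At 1 to 5 FPKM 6 of 18 were called, against 9.90%, at 5 to 20 FPKM 1 of 10, against 11.7%, and from 20 FPKM 1 of 4, against 15.4%. The call from 20 FPKM was that of the row that Tbx6 shares with Ypel3, so it cannot be given to Tbx6. These ranges were chosen with the results known and carry no test. At q under 0.01 the calls of Irx3, Pbx3 and Pitx3 held, beside 7.85% of all tested rows. With the authors' statistic taken as a standard normal z value, Irx3 alone held, beside 3.11% of all tested rows.

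The stretches around the starts of 5 called genes are shown because these genes were called, have a row of the table with 1 symbol and have an entry in the table of RefSeq windows used here (GRCm38.p6). Each runs from 250 bases before the start to 50 bases after it, on the strand of the gene. Capitals mark matches, on either strand, to 5 short motifs. These are TGATTNAT (a composite of Hox and Pbx binding), TGACAG (Meis and Pknox), CAGCTG (the E-box of muscle factors), TATAAA (the TATA box) and GGTGTG (T-box factors), and none of them overlaps another here. Irx3, Hoxd10 and Hoxa11 were higher in MLL4SET-MKO, and Pitx3 and Tbx4 were lower.
Irx3: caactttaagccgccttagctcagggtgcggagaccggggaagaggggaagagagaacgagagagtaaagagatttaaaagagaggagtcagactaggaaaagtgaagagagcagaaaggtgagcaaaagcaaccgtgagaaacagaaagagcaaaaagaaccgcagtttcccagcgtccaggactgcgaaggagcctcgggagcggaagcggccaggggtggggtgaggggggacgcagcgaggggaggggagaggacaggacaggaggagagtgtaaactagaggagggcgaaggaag
Hoxd10: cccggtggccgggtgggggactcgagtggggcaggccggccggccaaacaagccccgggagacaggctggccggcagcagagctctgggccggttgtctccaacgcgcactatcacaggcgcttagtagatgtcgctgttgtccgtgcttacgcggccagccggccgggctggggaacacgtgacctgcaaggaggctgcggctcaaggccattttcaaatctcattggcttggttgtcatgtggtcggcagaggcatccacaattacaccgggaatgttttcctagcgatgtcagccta
Hoxa11: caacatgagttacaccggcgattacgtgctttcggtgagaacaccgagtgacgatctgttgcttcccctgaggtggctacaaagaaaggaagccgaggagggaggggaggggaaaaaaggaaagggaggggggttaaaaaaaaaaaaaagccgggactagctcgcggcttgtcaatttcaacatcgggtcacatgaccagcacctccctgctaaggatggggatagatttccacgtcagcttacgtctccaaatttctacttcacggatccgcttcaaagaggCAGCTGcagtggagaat
Pitx3: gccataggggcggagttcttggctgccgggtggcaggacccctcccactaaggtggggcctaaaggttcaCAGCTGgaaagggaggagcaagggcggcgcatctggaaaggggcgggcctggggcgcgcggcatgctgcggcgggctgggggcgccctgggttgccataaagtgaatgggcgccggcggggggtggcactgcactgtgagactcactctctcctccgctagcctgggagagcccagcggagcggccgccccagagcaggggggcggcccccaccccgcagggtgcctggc
Tbx4: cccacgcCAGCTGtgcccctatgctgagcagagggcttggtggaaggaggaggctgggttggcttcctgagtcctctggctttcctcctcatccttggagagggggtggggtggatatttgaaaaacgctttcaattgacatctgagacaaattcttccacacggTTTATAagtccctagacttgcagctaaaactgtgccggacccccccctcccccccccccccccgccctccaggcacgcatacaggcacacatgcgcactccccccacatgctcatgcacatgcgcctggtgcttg
Irx3 lies at chr8:91801605-91801904 (minus strand), Hoxd10 at chr2:74691641-74691940 (plus strand), Hoxa11 at chr6:52245761-52246060 (minus strand), Pitx3 at chr19:46148276-46148575 (minus strand) and Tbx4 at chr11:85896515-85896814 (plus strand). The window of Hoxa11 holds 1 CAGCTG, that of Pitx3 1 CAGCTG, and that of Tbx4 1 CAGCTG and 1 TATAAA. None of the 5 motifs is in the windows of Irx3 and Hoxd10. Over all 32851 windows, 16.3% hold CAGCTG, 13.6% TATAAA, 3.22% TGATTNAT, 19.2% TGACAG and 19.05% GGTGTG. Of the 73 symbols of the members, 43 had a window. Their 48 windows had a median CpG ratio (observed over that given by the C and G content) of 0.66, against 0.38 for all windows, and a median GC content of 59.2% against 52.7%. The CpG ratio was 0.75 for Irx3, 0.75 for Hoxd10, 0.79 for Hoxa11, 0.54 for Pitx3 and 0.31 for Tbx4. The window of Tbx4 thus lay below the median of all windows and the other 4 above it. The windows of Tbx4 and Hoxa11 lie inside the loci of their rows (chr11:85890063-85916097 and chr6:52242105-52253934) and not at their outer ends. The Hoxa11 locus is shared with Hoxa11os. Whether the measured transcripts of these genes start in the windows was not tested. Windows of Pbx3 and Barx2 were not used here.

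Hox transcripts were dominated by few genes. Hoxc10, a posterior gene known for its hindlimb expression, was the highest at 46.7 FPKM in MLL4SET-MKO and 39.4 FPKM in WT. Hoxd8 followed at 30.5 FPKM in MLL4SET-MKO and 37.3 FPKM in WT. Hoxd9 stood at 13.9 FPKM in MLL4SET-MKO and 12.4 FPKM in WT, and Hoxa10 at 13.8 FPKM in MLL4SET-MKO and 11.9 FPKM in WT, so the order of these neighbours rests on small gaps. Hoxc10 alone made up 30.4% of the FPKM of the 22 tested Hox rows in MLL4SET-MKO and 27.6% in WT, and Hoxd8 19.8% in MLL4SET-MKO and 26.1% in WT. Hoxc10 was thus the highest Hox gene in both groups, and Hoxd8 was closer to it in WT. The HoxB cluster was low throughout, its 4 tested genes summing to 2.07 FPKM in MLL4SET-MKO and 2.44 FPKM in WT.

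**Figure D1:**
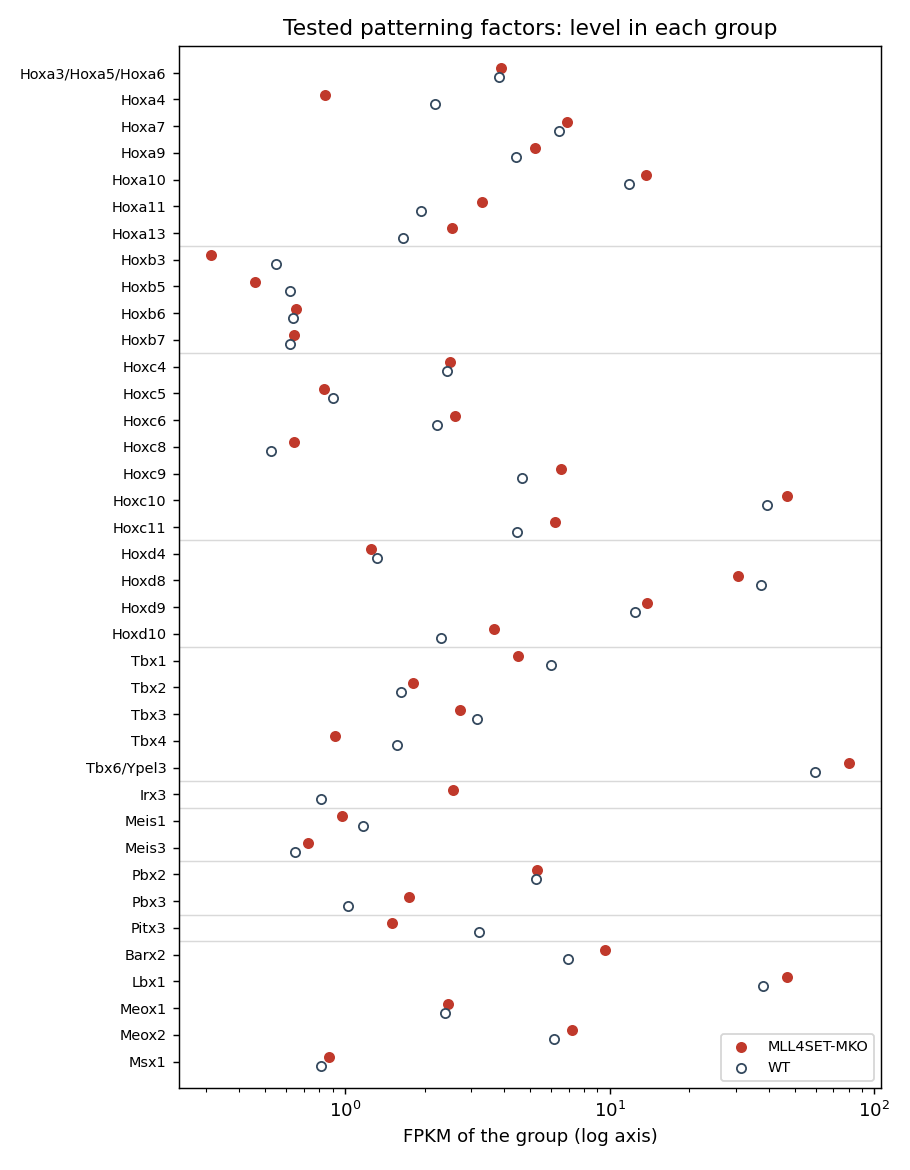
FPKM of 38 of the 40 tested rows on a log axis, grouped by family, with filled points for MLL4SET-MKO and open points for WT, each 1 value of the authors for 3 libraries. Levels run from 0.313 FPKM (Hoxb3 in MLL4SET-MKO) to 80.3 FPKM (the Tbx6 and Ypel3 row in MLL4SET-MKO), and the wide gap of Irx3 stands beside small gaps for most genes.

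Among the Hox genes, 2 of 22 tested rows were called, both higher and both posterior. That is 9.09%, below the 11.8% of all tested rows called in either direction. Of all tested rows, 4.44% were called higher and 7.41% lower. Hoxd10, which acts in hindlimb patterning and in motor neurons, stood at 3.66 FPKM in MLL4SET-MKO and 2.31 FPKM in WT. The log2 ratio of 0.66 had an interval of 0.27 to 1.05 and q = 0.0121 in the authors' deposited table. Hoxa11, which patterns the middle segment of the limb, stood at 3.30 FPKM in MLL4SET-MKO and 1.93 FPKM in WT (log2 ratio 0.77, interval 0.29 to 1.25; q = 0.0225 in the authors' deposited table). Its exons overlap those of the antisense RNA Hoxa11os, which was listed at 2.68 FPKM in MLL4SET-MKO and 1.62 FPKM in WT (q = 0.10 in the authors' deposited table). The strand setting of the quantification is not known here, so reads of Hoxa11 and Hoxa11os may not be told apart.

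Posterior and anterior paralogs were set side by side after their values were seen, so no test of this split is given. In paralog groups 9 to 13, all 9 tested genes were higher in value in the knock-out muscle, against 45.7% of all tested rows. Their median log2 ratio was 0.47, with a range from 0.16 (Hoxd9) to 0.77 (Hoxa11). Another 7 posterior genes were not tested, and 2 of them were listed at 0 in both groups. Of the rest, Hoxb9 was lower in value, at 0.148 FPKM in MLL4SET-MKO and 0.243 FPKM in WT. Below 0.1 FPKM in both groups, Hoxc13, Hoxd11 and Hoxd13 were lower in value and Hoxb13 higher. Of 13 tested rows of groups 1 to 8, 7 had a higher value and 6 a lower one, with a median of 0.03. The posterior genes summed to 101.9 FPKM in MLL4SET-MKO and 83.2 FPKM in WT, and the anterior rows to 52.0 FPKM in MLL4SET-MKO and 59.6 FPKM in WT. The posterior genes thus held 66.2% of the Hox FPKM in MLL4SET-MKO and 58.3% in WT. Most of the gap between the anterior sums was that of Hoxd8, which was not called, and the other 12 anterior rows summed to 21.5 FPKM in MLL4SET-MKO and 22.3 FPKM in WT. Without Hoxd8 the posterior share was 82.6% in MLL4SET-MKO and 78.9% in WT. The posterior sums include Hoxc9, Hoxc10 and Hoxc11, none of them called, which lie on the same chromosome as Kmt2d. All tested HoxC genes, posterior and anterior, summed to 66.1 FPKM in MLL4SET-MKO and 54.6 FPKM in WT.

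None of the posterior genes of the HoxC cluster was called. Hoxc9 stood at 6.58 FPKM in MLL4SET-MKO and 4.68 FPKM in WT (log2 ratio 0.49, interval 0.11 to 0.87; q = 0.0809 in the authors' deposited table). Hoxc11 stood at 6.21 FPKM in MLL4SET-MKO and 4.47 FPKM in WT (log2 ratio 0.47, interval 0.07 to 0.88; q = 0.12 in the authors' deposited table). For the more abundant Hoxc10 the log2 ratio was 0.24, with an interval of -0.00306 to 0.49 and q = 0.22 in the authors' deposited table. Of the 7 tested HoxC genes, none passed at q and these 3 had an unadjusted p under 0.05 in the authors' deposited table, against 22.2% of all tested rows. For Hoxc10 that p was 0.0489, though its interval just included 0. The same median factor was used for every row, so the intervals of single rows are approximate. The cluster lies on the same chromosome as the targeted gene, 4.05 to 4.16 Mb from Kmt2d, so a difference tied to that stretch of chromosome and a response to the deletion cannot be told apart. Hotair, the non-coding RNA of this cluster, was listed at 0.724 FPKM in MLL4SET-MKO and 0.699 FPKM in WT. Among the anterior genes of the cluster, Hoxc6 stood at 2.60 FPKM in MLL4SET-MKO and 2.22 FPKM in WT, Hoxc4 at 2.50 FPKM in MLL4SET-MKO and 2.44 FPKM in WT, Hoxc5 at 0.836 FPKM in MLL4SET-MKO and 0.900 FPKM in WT, and Hoxc8 at 0.640 FPKM in MLL4SET-MKO and 0.524 FPKM in WT.

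In the HoxA cluster, Hoxa13, a gene of the digit region, stood at 2.54 FPKM in MLL4SET-MKO and 1.66 FPKM in WT (log2 ratio 0.62, interval -0.05 to 1.28). Hoxa9 stood at 5.21 FPKM in MLL4SET-MKO and 4.43 FPKM in WT, and Hoxa7 at 6.91 FPKM in MLL4SET-MKO and 6.43 FPKM in WT. The intervals of all 3 included 0. The row that Hoxa3, Hoxa5 and Hoxa6 share held 3.89 FPKM in MLL4SET-MKO and 3.82 FPKM in WT. Hoxa4, whose locus in the table is the same as that of this row, was listed at 0.840 FPKM in MLL4SET-MKO and 2.19 FPKM in WT. Its log2 ratio of -1.38 was the lowest among the 40 tested rows, but its interval ran from -2.35 to -0.42 and it was not called (q = 0.0879 in the authors' deposited table). Of the antisense RNAs here, Hotairm1 and Hoxaas3 were not tested, with Hotairm1 listed at 0.895 FPKM in MLL4SET-MKO and 0.365 FPKM in WT, and Hoxaas3 at 0.263 FPKM in MLL4SET-MKO and 0.0582 FPKM in WT. Hoxaas3 overlaps exons of Hoxa7 and of the shared row. How the authors' program split reads between the rows of this locus is uncertain.

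**Figure D2:**
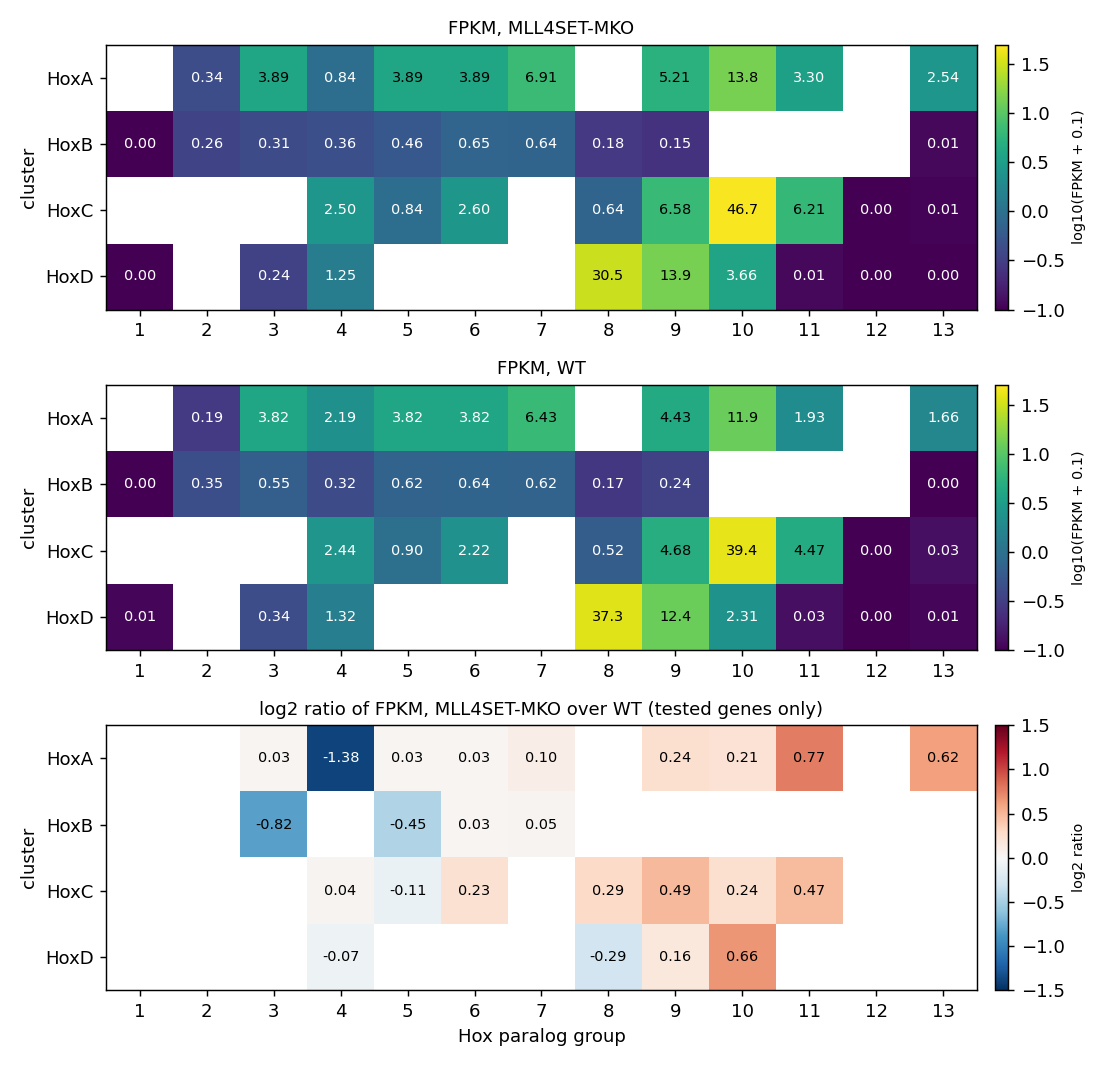
The upper and middle panels give the FPKM of the Hox genes in MLL4SET-MKO and in WT by cluster (rows) and paralog group (columns), and the lower panel gives the log2 ratio of tested genes. Hoxa3, Hoxa5 and Hoxa6 share 1 row of the table and repeat its value, blank cells have no row, no test or no value shown, and groups 9 to 13 have ratios above 0 in every filled cell.

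Of the 4 tested HoxD genes, Hoxd10 was called. Hoxd8 had a log2 ratio of -0.29 (interval -0.55 to -0.04; q = 0.15 in the authors' deposited table), and Hoxd9 one of 0.16 (interval -0.12 to 0.44), neither of them called. Hoxd4 stood at 1.25 FPKM in MLL4SET-MKO and 1.32 FPKM in WT. In the HoxB cluster, Hoxb3 was listed at 0.313 FPKM in MLL4SET-MKO and 0.552 FPKM in WT (log2 ratio -0.82, interval -1.43 to -0.20; q = 0.0702 in the authors' deposited table). Hoxb5 stood at 0.457 FPKM in MLL4SET-MKO and 0.623 FPKM in WT, Hoxb6 at 0.653 FPKM in MLL4SET-MKO and 0.639 FPKM in WT, and Hoxb7 at 0.643 FPKM in MLL4SET-MKO and 0.623 FPKM in WT. None of the 4 HoxB rows was called, and 1 of them (Hoxb3) had an unadjusted p under 0.05 in the authors' deposited table, a share near the 22.2% of all tested rows.

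Of the proteins that bind DNA with Hox factors, Pbx3 was called higher. It stood at 1.74 FPKM in MLL4SET-MKO and 1.03 FPKM in WT (log2 ratio 0.77, interval 0.34 to 1.20; q = 0.00792 in the authors' deposited table). Pbx2 stood at 5.31 FPKM in MLL4SET-MKO and 5.26 FPKM in WT (interval -0.29 to 0.32). Meis1, a partner of Pbx proteins, stood at 0.973 FPKM in MLL4SET-MKO and 1.17 FPKM in WT, and Meis3 at 0.726 FPKM in MLL4SET-MKO and 0.649 FPKM in WT. Neither Meis gene was called or had an unadjusted p under 0.05 in the authors' deposited table.

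The largest change in fold among the called members was that of Irx3. This Iroquois homeobox gene, which acts in limb and heart patterning and in fat tissue (chromosome 8, 91798511 to 91801654 on mm10, minus strand, protein-coding), stood at 2.57 FPKM in MLL4SET-MKO and 0.814 FPKM in WT. It was 3.16-fold higher, a log2 ratio of 1.66 (interval 1.19 to 2.13), and its q of 0.000903 is the smallest value that the authors' deposited table gives, shared by 739 of all tested rows. With that statistic taken as a z value its q was 0.0036 after Benjamini-Hochberg adjustment. In GENCODE M21 its exons overlap those of the antisense gene Irx3os. As the strand setting is not known here, reads of Irx3 and Irx3os may not be told apart. Irx5, its neighbour on chromosome 8, was not tested, at 0.218 FPKM in MLL4SET-MKO and 0.131 FPKM in WT. The other 4 Iroquois genes were below 0.1 FPKM in both groups, and Irx3 was the one tested member of the family.

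Pitx3 and Tbx4 were the members called lower. Pitx3, a paired-type homeobox gene of lens, dopamine neurons and differentiating muscle (chromosome 19, 46131899 to 46148325), fell to 1.51 FPKM in MLL4SET-MKO, against 3.22 FPKM in WT. That is 2.13-fold lower, a log2 ratio of -1.09 (interval -1.66 to -0.52; q = 0.00955 in the authors' deposited table). Its locus is shared with Elovl3, a fatty acid elongase gene on the other strand, which was listed at 0.121 FPKM in MLL4SET-MKO and 0.194 FPKM in WT.

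Tbx4, the hindlimb T-box gene, which is also expressed in muscle connective tissue, fell to 0.920 FPKM in MLL4SET-MKO, against 1.57 FPKM in WT. The log2 ratio of -0.77 had an interval of -1.21 to -0.33 and q = 0.0116 in the authors' deposited table. The 5 fibroblast markers had a median log2 ratio of 0.07, with 3 of them higher in value. Of the 3 tendon markers, none was called and 2 (Tnmd and Mkx) were higher in value. Scx was lower, at 4.65 FPKM in MLL4SET-MKO and 7.59 FPKM in WT. The part of connective tissue cells in the value of Tbx4 was not tested. The forelimb gene Tbx5 was at 0.0180 FPKM in MLL4SET-MKO and 0.0170 FPKM in WT and was not tested. Tbx1, a gene of head muscle development, stood at 4.53 FPKM in MLL4SET-MKO and 6.03 FPKM in WT (log2 ratio -0.41, interval -0.77 to -0.06; q = 0.15 in the authors' deposited table). The repressors Tbx2 and Tbx3 had intervals that included 0, Tbx2 at 1.81 FPKM in MLL4SET-MKO and 1.63 FPKM in WT, and Tbx3 at 2.72 FPKM in MLL4SET-MKO and 3.17 FPKM in WT. The row named for Tbx6, a gene of the early mesoderm, and for Ypel3 held 80.3 FPKM in MLL4SET-MKO and 59.8 FPKM in WT (log2 ratio 0.42; q = 0.0204 in the authors' deposited table). Since the row sums both genes, this call cannot be given to Tbx6.

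**Figure D3:**
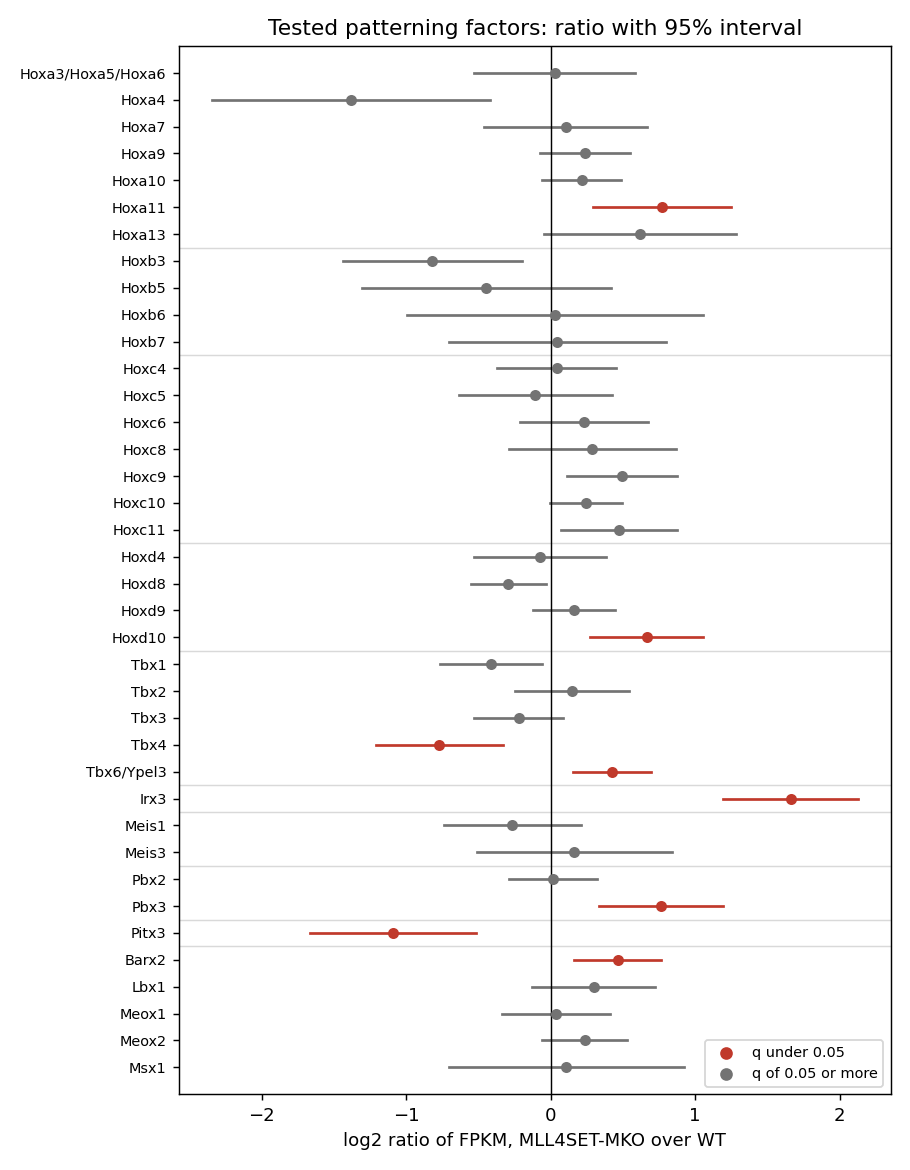
The log2 ratio of FPKM, MLL4SET-MKO over WT, of 38 of the 40 tested rows with their 95% intervals, in red where q was under 0.05 in the authors' deposited table. The intervals were worked back from the authors' test statistic, scaled to match the authors' p-values. Irx3 stands furthest to the right at 1.66. The intervals of Pitx3 and Tbx4 lie below 0, as do those of Hoxa4, Hoxb3, Hoxd8 and Tbx1, which were not called.

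Of the single homeobox factors, Barx2 was called higher. Barx2, which acts in muscle precursors and their differentiation, stood at 9.60 FPKM in MLL4SET-MKO and 6.96 FPKM in WT (log2 ratio 0.46, interval 0.16 to 0.76; q = 0.0309 in the authors' deposited table). Of 5 satellite cell markers, 1 had a higher value, and Myf5 and Chodl were called lower. These markers summed to 14.7 FPKM in MLL4SET-MKO and 17.8 FPKM in WT, and their part in the values of Barx2 and Pitx3 was not tested. Lbx1, a gene of migrating limb muscle precursors, was among the highest members at 46.8 FPKM in MLL4SET-MKO and 38.1 FPKM in WT. The interval of its log2 ratio was -0.13 to 0.72 (q = 0.46 in the authors' deposited table). Meox2, which acts in limb muscle and vessels, stood at 7.24 FPKM in MLL4SET-MKO and 6.15 FPKM in WT. Meox1 stood at 2.46 FPKM in MLL4SET-MKO and 2.40 FPKM in WT, and Msx1, which holds back muscle differentiation, at 0.874 FPKM in MLL4SET-MKO and 0.810 FPKM in WT. Each of the 5 tested single factors was higher in value in the knock-out muscle, against 45.7% of all tested rows. Barx2 was the one that passed, and the intervals of Lbx1, Meox1, Meox2 and Msx1 included 0.

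**Figure D4:**
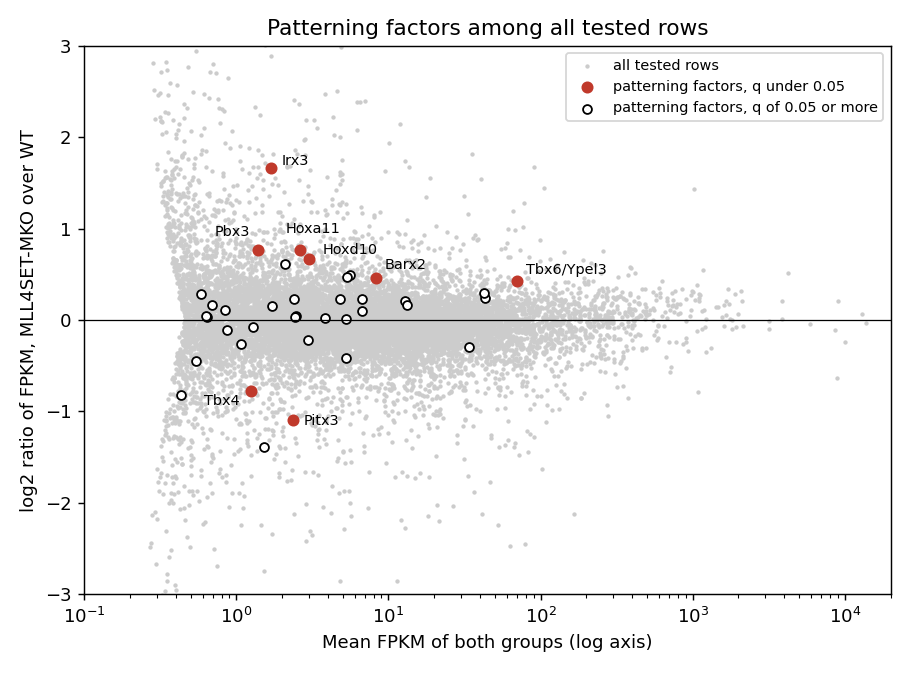
Log2 ratio of FPKM, MLL4SET-MKO over WT, against the mean FPKM of both groups (log axis) for the tested rows in grey, 61 of which lie outside the axes, with 38 of the patterning factors in red (called) or as open circles. Most called members lie between 1 and 10 FPKM and Irx3 is the highest of them at a log2 ratio of 1.66.

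The remaining 31 members were not tested by the authors. Of these, 12 reached 0.1 FPKM in at least 1 group, and the highest value among them was 0.362 FPKM (Tbx18 in WT). They included Hoxa2, Hoxb2, Hoxb4, Hoxb8, Hoxb9, Hoxd3, Irx5, Meis2, Pitx1, Tbx18 and Tbx21. Pitx1, the hindlimb determinant, stood at 0.261 FPKM in MLL4SET-MKO and 0.214 FPKM in WT. The other 19 were below 0.1 FPKM in both groups, and 8 of them were listed at 0 in both. The genes Hoxd11, Hoxd12 and Hoxd13 were among these 19, as were Hoxb13, Hoxc12 and Hoxc13, while the posterior genes Hoxa11, Hoxa13 and Hoxc11 were tested.

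A list of 63 other limb patterning genes and Hox partners gave 38 tested rows, of which 2 were called higher and 2 lower. That is 10.5% of the list, near the 11.8% of all tested rows, and its median log2 ratio was -0.16. Pknox2, which like the Meis genes encodes a partner of Pbx proteins, fell to 6.57 FPKM in MLL4SET-MKO, against 12.1 FPKM in WT (log2 ratio -0.88, interval -1.15 to -0.62; q = 0.000903 in the authors' deposited table). Fgfr1, a receptor for fibroblast growth factors, has 2 rows at 1 locus, and the higher one fell to 13.6 FPKM in MLL4SET-MKO, against 23.3 FPKM in WT (log2 ratio -0.78; q = 0.000903 in the authors' deposited table). The lower one, not called, stood at 1.04 FPKM in MLL4SET-MKO and 1.96 FPKM in WT. The homeobox gene Alx4, which acts in the anterior limb bud, rose to 0.992 FPKM in MLL4SET-MKO, against 0.275 FPKM in WT (log2 ratio 1.85, interval 1.17 to 2.53; q = 0.000903 in the authors' deposited table). En1, a homeobox gene of the ventral limb bud, rose to 6.05 FPKM in MLL4SET-MKO, against 4.03 FPKM in WT (log2 ratio 0.59; q = 0.00509 in the authors' deposited table). With the statistic taken as a z value, Pknox2 and the higher row of Fgfr1 passed, and Alx4 and En1 did not. Of the other genes with the highest means, Prrx1, a gene of limb mesenchyme, stood at 23.2 FPKM in MLL4SET-MKO and 28.4 FPKM in WT. Six2 stood at 19.4 FPKM in MLL4SET-MKO and 15.4 FPKM in WT, Eya4 at 15.8 FPKM in MLL4SET-MKO and 13.6 FPKM in WT, and Tcf4 at 13.1 FPKM in MLL4SET-MKO and 12.0 FPKM in WT.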

How the data were processed

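Messenger RNA of gastrocnemius was sequenced in 3 MLL4SET-MKO and 3 WT libraries. The submitters' processing notes name TopHat2 2.0.14, Cufflinks 2.2.1 and the build mm10 (GRCm38). They give neither the annotation nor the strand setting nor how libraries were scaled. The authors deposited 1 FPKM for each group, a test statistic (a score), and a p-value and q-value, per the file headers in the layout of Cuffdiff. Read depth is unknown and no values of single libraries were used.

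Log2 ratios were computed from the FPKM without a pseudocount. Benjamini-Hochberg adjustment of the deposited p-values over the 13347 tested rows gave the deposited q-values within 0.0001. The deposited p-values matched a normal deviate of 1.73 times the statistic (median over the 12519 rows with a p-value above its floor and under 0.99), and 95% intervals were worked back on that basis. The bound of 0.99 was set after the values were seen, and a bound of 0.5 gave 1.73. The statistic was missing in 20 tested rows. Starts are counted from 1. The scripts used Python 3.11.15 and were tested on simulated data.

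The naming rule took every tested member, members not tested that reached 0.1 FPKM, and, of the other list, its called genes and the 6 highest by mean FPKM. Some genes that it took are not reported here, but they stay in the counts. Members and lists were chosen with earlier results of these data known. Alternatives were q under 0.01, the statistic taken as a z value, a minimum mean of 1 FPKM, a pseudocount of 1 or 0.1 FPKM, rescaling of the groups, and rows with no shared locus.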

Additional observations from a re-analysis of the deposited data

How the results depend on the processing

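No paired analysis was possible because the authors' deposited table gives 1 value a group, and for the same reason no replicate could be left out. Of the 8 members called, 3 remained at q under 0.01 (Irx3, Pbx3 and Pitx3), 1 with the statistic taken as a standard normal z value (Irx3), and 5 among rows with no shared locus, which leave out Hoxa11, Pitx3 and the Tbx6 row by construction. A minimum mean of 1 FPKM kept all 8 by construction, since no member below that mean had been called. By family, settings chosen after seeing the data, q under 0.01 left 0 calls in HoxA, HoxD, Tbx and the single factors, and the z value left 0 in these and in Pbx and Pitx. On that reading Kmt2d (log2 ratio -0.64) had q = 0.13, and 2 of 4 genes of the other list passed. The number of members with a higher value was 29 of 40 under both rescalings and 24 of 32 with a minimum of 1 FPKM. Their median log2 ratio ranged from 0.08 (1 FPKM added) to 0.19 (no shared locus). Adding 1 or 0.1 FPKM to both groups cannot turn a direction, and it gave Irx3 a log2 value of 0.98 or 1.55. Read depth is unknown, and the median standard error of the log2 ratio was 0.22 over the tested members and 0.16 over all tested rows.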
